A study of Mus musculus with 24 samples.

Results

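Heat shock proteins of the cytosol and of mitochondria were followed in the liver of 24 mice through 10 genes: Hspa1a, Hspa1b, Hspa8, Hspb1, Hsph1, Dnajb1, Hsp90aa1, Hsp90ab1, Hspd1 and Hspe1. They were picked by name: every non-control array probe that carried one of these symbols was taken, which gave 20 of 56605 probes and 10 of 37008 gene names. Of these 20 probes, 19 were kept as measurable, and 18 of the 19 lay well above background on all 24 arrays. The exceptions were a Hsph1 probe above background on 22 arrays and a Hsp90aa1 probe designed from an expressed sequence tag, above background on 0 arrays and left out. All 10 genes were tested, beside 23966 genes in all.

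The mice were male, wild-type and of the C57Bl/6J strain. They were 8 weeks old, had been kept since birth under equal spans of light and dark, and ate Safe 04 chow. Of 4 groups of 6 mice, 1 was fed with tap water to drink, 1 was fed with 20% glucose in the water for 24 h, 1 was fed with 20% fructose in the water for 24 h, and 1 was fasted for 24 h. All were killed at ZT16, that is 16 h after lights on. Total RNA of 1 liver was labelled with Cy3 and hybridised to 1 Agilent array, so each value is from 1 mouse. The comparisons ask how 24 h without food, or with a single sugar in the drinking water, changed liver RNA.

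These proteins are molecular chaperones: they hold, fold or refold other proteins. HSP70 proteins bind unfolded stretches in a cycle driven by ATP, which HSP40 proteins start and exchange factors end, while HSP90 proteins act later on signalling proteins and steroid receptors. When unfolded proteins build up in the cytosol, heat shock factor 1 binds heat shock elements, repeats of the letters GAA in alternating orientation, and raises the genes of the inducible chaperones. A separate chaperonin, made of HSP60 and HSP10, folds proteins inside mitochondria, and the endoplasmic reticulum has its own set of chaperones under other factors.

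The sequences upstream of the transcription start show how this family can be wired, and the ones below are shown for the heat shock elements they hold. Of the 10 genes, 7 have an entry in the RefSeq promoter table used here (GRCm38.p6). Hspa8, Hsp90aa1 and Hsp90ab1 have none. Each upstream window of 250 bases was searched on both strands for GAANNTTC and TTCNNGAA, which are pairs of repeats and their own reverse complements, and for the triplets GAANNTTCNNGAA and TTCNNGAANNTTC, which are reverse complements of each other and contain the pairs. Hsph1, Dnajb1 and Hspd1 have 2 windows each and the others 1, and a gene was counted if any of its windows held the motif. A pair was found for 6 of the 7 genes and in 12.8% of all 32851 windows. Hspa1a and Hspa1b have nearly identical windows, and Hspd1 and Hspe1 share the stretch with the motifs, so these 6 genes are not separate cases. A triplet lay in 1 of the 2 Hspd1 windows, in the Hspe1 window and in 0.466% of all windows. The 2 Dnajb1 windows held neither, which says only that these letters are not there. In the lines that follow, capitals mark these motifs and the start site lies to the right of the last base, except for the short stretches of Hsph1 and Hspe1, which end farther upstream.
Hspa1a, chr17:34972157-34972306, minus strand: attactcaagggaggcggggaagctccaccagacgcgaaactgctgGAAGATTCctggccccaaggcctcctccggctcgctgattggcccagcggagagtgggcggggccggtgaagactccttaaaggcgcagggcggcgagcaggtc
Hspa1b, chr17:34959239-34959388, minus strand: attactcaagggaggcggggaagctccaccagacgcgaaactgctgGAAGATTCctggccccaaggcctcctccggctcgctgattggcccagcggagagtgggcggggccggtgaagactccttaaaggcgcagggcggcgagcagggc
Hspb1, chr5:135887769-135887918, plus strand: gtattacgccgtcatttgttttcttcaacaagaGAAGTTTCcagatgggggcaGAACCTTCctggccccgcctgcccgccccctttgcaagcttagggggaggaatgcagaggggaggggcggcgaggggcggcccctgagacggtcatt
Hsph1, chr5:149636351-149636380, minus strand: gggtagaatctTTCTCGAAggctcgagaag
Hspe1, chr1:55088054-55088083, plus strand: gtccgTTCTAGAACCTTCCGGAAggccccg

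The upstream windows of Hspa1a and Hspa1b were identical at 247 of 250 bases. Counted upstream from the start site, with the Hspa1a base first, the differences were C207T, T204C and T2G. Hspd1 and Hspe1 lie head to head on opposite strands, with 215 bases between the inner Hspd1 start and the Hspe1 start. The capitals printed for Hspe1 mark overlapping triplets, and they are the same stretch of DNA that was found upstream of Hspd1. The first base of this stretch lies 89 bases before the Hspe1 start.

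For 3 genes whose level passed a test, a probe is shown, since these 60 bases are what the array measured. For Hsp90aa1 it is the probe used for the gene, and for Hsph1 and Hspd1 another of its kept probes. Each is written as the array files give it, with its mm9 position, and no capitals are used because no part of it was singled out. The Hsp90aa1 and Hspd1 probes cover 286 and 148 bases of the genome with their 60 bases, so each spans a splice junction.
Hsph1 probe, chr5:150420110-150420169, minus strand: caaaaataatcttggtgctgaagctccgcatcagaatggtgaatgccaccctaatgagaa
Hsp90aa1 probe, chr12:111932511-111932796, minus strand: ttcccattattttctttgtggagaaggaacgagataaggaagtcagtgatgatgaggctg
Hspd1 probe, chr1:55135257-55135404, minus strand: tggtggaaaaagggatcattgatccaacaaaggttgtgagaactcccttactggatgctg

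Levels are given on the log2 scale relative to each array's 75th percentile, and differences are log2 differences of group means with the limma standard error (SE). A gene is called where the Benjamini-Hochberg adjusted p over all 23966 genes is under 0.05. Arrays had a 75th percentile between 7.96 and 8.44 on the log2 scale and 32519 to 36272 probes above background. Across the 24 arrays these measures followed the members' mean deviation from the group mean only weakly, at r = 0.32 and r = -0.06. Fasted mouse 2 had the lowest value of its group in 25.4% of 23920 genes, a share that was not computed for the other fasted mice. Each of the 3 slides held 2 mice of every group, so slide was also fitted as a block and the differences were taken within slides. The p-values measure the spread between these mice.

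Fasted mice had less Hsph1 and Hsp90aa1 RNA and more Hspd1 RNA than water-fed mice. Hsph1 was 1.79-fold lower and Hsp90aa1 1.91-fold lower on average, while Hspd1 was 1.22-fold higher. Of the 10 genes, 1 rose, 2 fell and 7 did not pass the test, where 42.6% of all genes were called, 21.7% higher and 20.9% lower. The members' median difference was -0.53 and that of all genes 0.02. The values of fasted and water-fed mice overlapped for all 10 genes, as against 24.3% of all genes with groups that did not overlap. With slide as a block Hspa1a and Dnajb1 also passed as lower, which made 1 higher and 4 lower.

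**Figure D1:**
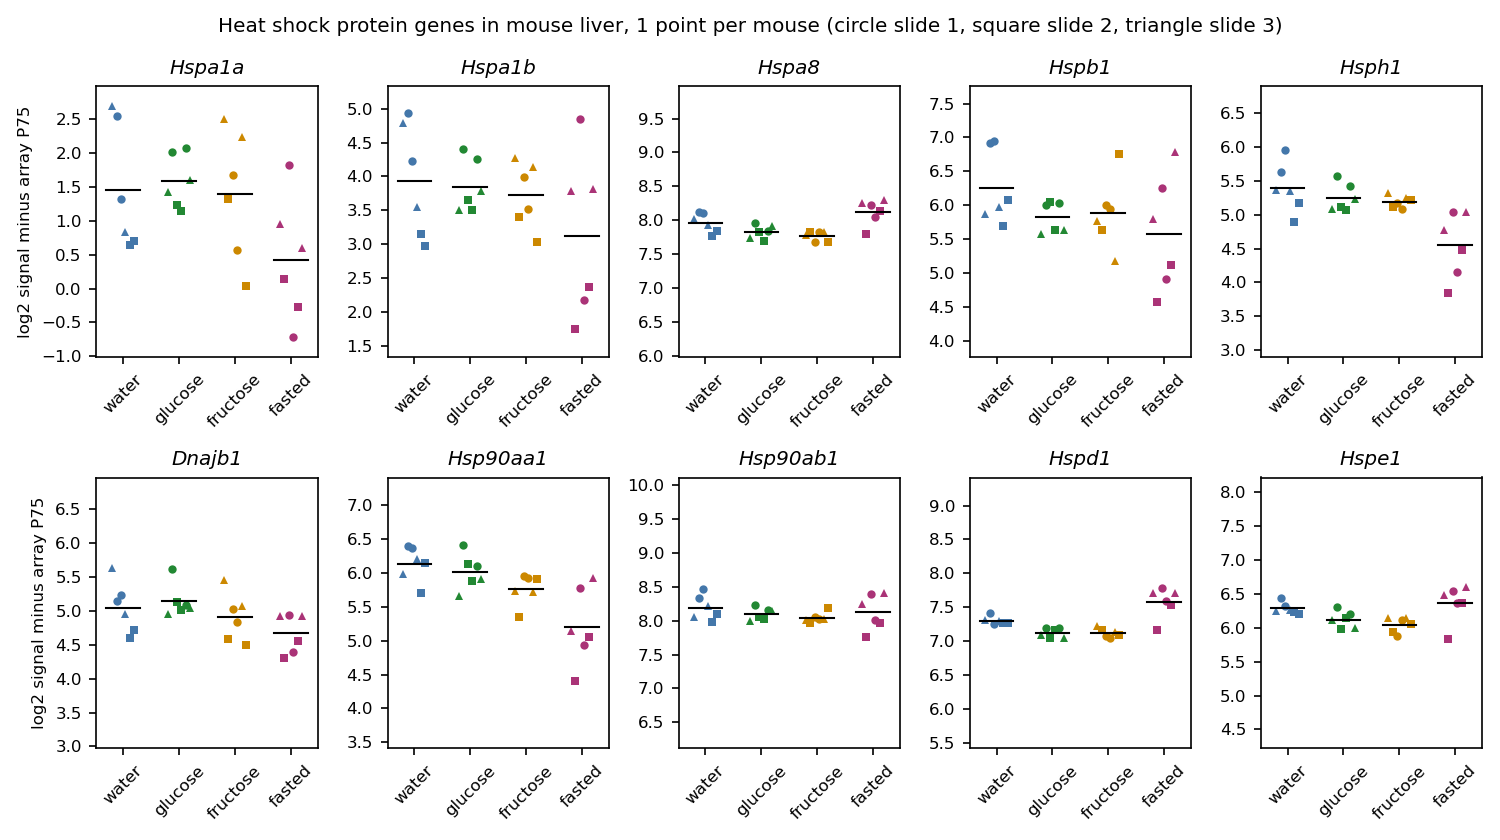
Log2 signal of each of the 10 genes relative to the array's 75th percentile, 1 point per mouse and 6 mice per group, with the group mean as a line and the slide as the marker shape; every panel spans 4 log2 units. The fasted means are the lowest for Hsph1 and Hsp90aa1 and the highest for Hspd1, and the fasted points are the most scattered for 8 of the 10 genes.

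Hspa1a and Hspa1b encode the stress-inducible cytosolic HSP70, from neighbouring, nearly identical genes. Their probes share no run longer than 5 bases, but 1 probe each cannot exclude signal from the other copy. In water-fed mice Hspa1a had a lowest level of 0.64, a median of 1.07 and a highest of 2.70, and in fasted mice -0.72, 0.37 and 1.82. In glucose-fed mice it ran from 1.14 through a median of 1.51 to 2.08, and in fructose-fed mice from 0.03 through 1.49 to 2.50. The groups overlapped broadly: water-fed mice 1 and 2 were more than 1 log2 unit above the other 4, and fasted mouse 3 was above the water-fed median.

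The Hspa1a mean was lower in fasted than in water-fed mice by a difference of -1.04 (SE 0.46, adjusted p = 0.0743, limma), which did not pass without the slide block and did with it (adjusted p = 0.0400). Within slides 1, 2 and 3 the differences were -1.38, -0.73 and -0.99. It passed when water-fed mouse 5 was left out (adjusted p = 0.0497) or fasted mouse 3 was left out (0.0216). Hspa1b had a median of 3.89 in water-fed and 3.07 in fasted mice, with a range of 1.74 to 4.85 in the fasted group. Its difference was -0.82 (SE 0.44, adjusted p = 0.143) and did not pass with the slide block either (0.0597). Without fasted mouse 3 it was -1.16 with an adjusted p of 0.0219. In both the water-fed and the fasted group these were the most variable of the members, with SDs of 0.94 and 0.91 for Hspa1a and 0.83 and 1.21 for Hspa1b.

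Hspa8 encodes the constitutive HSP70, HSC70, a housekeeping chaperone of all cells. In water-fed mice its level ran from 7.77 through a median of 7.97 to 8.12, and in fasted mice from 7.79 through 8.19 to 8.29. Of the fasted mice, 4 lay above every water-fed mouse and mouse 2 lay near the bottom of the water-fed range. The difference was 0.16 (SE 0.08, adjusted p = 0.107) and did not pass. Without fasted mouse 2 it was 0.23 with an adjusted p of 0.0098. With quantile normalization it was -0.01 (adjusted p = 0.910), so the sign for this gene depended on the scaling. Its 4 probes gave differences of 0.16 to 0.22.

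Hsph1 encodes HSP110, a large HSP70 relative that releases ADP from HSP70 and slows aggregation. Its lowest, median and highest levels were 4.89, 5.36 and 5.95 in water-fed mice and 3.85, 4.63 and 5.04 in fasted mice. They were 5.07, 5.17 and 5.57 with glucose and 5.08, 5.19 and 5.32 with fructose. All 6 fasted mice were below every mouse on glucose or fructose, and fasted mice 3 and 6 reached the lower end of the water-fed range. The fasted mean was below the water-fed mean by a difference of -0.84 (SE 0.18, adjusted p = 0.000568), and the call held with any 1 array left out (highest adjusted p 0.0021).

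All 3 Hsph1 probes were lower in fasted than in water-fed mice, with differences of -0.84, -0.95 and -1.24, each past the threshold. The probe printed above gave -0.95 (adjusted p = 0.000223). Within slides 1, 2 and 3 the difference of the gene was -1.19, -0.87 and -0.45, so the smallest was on slide 3, where it did not pass alone (adjusted p = 0.0579, 2 mice per group).

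Dnajb1 encodes HSP40, the co-chaperone that brings clients to HSP70 and starts its ATP cycle. Its level ran from 4.60 through a median of 5.05 to 5.63 in water-fed mice and from 4.31 through 4.73 to 4.94 in fasted mice. Fasted mice 2, 4 and 5 lay below every water-fed mouse, and fasted mice 1, 3 and 6 lay within the water-fed range, below its median. The difference was -0.38 (SE 0.18, adjusted p = 0.0941) and passed with the slide block (0.0350), with within-slide differences of -0.53, -0.23 and -0.37. It also passed without water-fed mouse 5 (adjusted p = 0.0416).

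Hsp90aa1 encodes the inducible cytosolic HSP90 alpha. Its lowest, median and highest levels were 5.71, 6.18 and 6.40 in water-fed mice and 4.40, 5.10 and 5.93 in fasted mice. With glucose they were 5.66, 6.01 and 6.42 and with fructose 5.35, 5.82 and 5.95. Of the fasted mice, 4 lay below every fed mouse, and mice 3 and 6 lay within the fed range. The difference from water-fed mice was -0.93 (SE 0.20, adjusted p = 0.000497), and it passed with any 1 array left out (highest adjusted p 0.00171). The other kept probe gave -0.90. Within slides the differences were -1.03, -1.21 and -0.56, and slide 2 alone passed (adjusted p = 0.0389, against 0.0502 and 0.203 on slides 1 and 3).

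Hsp90ab1 encodes the constitutive HSP90 beta, and it did not follow its inducible partner in the group means. Its median was 8.16 in water-fed and 8.13 in fasted mice, with ranges of 7.98 to 8.47 and 7.76 to 8.41. The difference was -0.07 (SE 0.10, 95% interval -0.27 to 0.14, adjusted p = 0.648). With quantile normalization it was -0.24 with an adjusted p of 0.0638.

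Hspb1 encodes the small heat shock protein HSP25, which binds unfolding proteins without ATP. Its median was 6.02 in water-fed mice and 5.45 in fasted mice, with ranges of 5.70 to 6.95 and 4.57 to 6.79. The difference of -0.68 (SE 0.32, adjusted p = 0.0955) did not pass. Slides went in both directions, with -1.36, -1.05 and 0.37, and without fasted mouse 6 the difference was -0.92 with an adjusted p of 0.0148.

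Hspd1 and Hspe1 encode HSP60 and HSP10, the barrel and the lid of the mitochondrial chaperonin. The lowest, median and highest levels of Hspd1 were 7.25, 7.28 and 7.42 in water-fed mice and 7.17, 7.65 and 7.79 in fasted mice. With glucose they were 7.04, 7.12 and 7.20 and with fructose 7.05, 7.11 and 7.22. Of the fasted mice, 5 lay above all 18 fed mice, and mouse 2 lay below the water-fed range. The difference from water-fed mice was 0.28 (SE 0.07, adjusted p = 0.00362) and passed with any 1 array left out (highest adjusted p 0.012). It was 0.36, 0.08 and 0.41 within slides 1, 2 and 3, which passed alone on slide 3 (adjusted p = 0.0871, 0.749 and 0.031), and slide 2 holds fasted mouse 2.

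The rise of Hspd1 against water depended on the scaling. Both of its probes passed, at 0.31 and 0.28, but with quantile normalization the difference was 0.13 (adjusted p = 0.135) and it was 0.14 (adjusted p = 0.110) when the authors' deposited series values were fitted. Hspe1 had medians of 6.26 and 6.43 in water-fed and fasted mice, with ranges of 6.21 to 6.44 and 5.83 to 6.61. Its difference was 0.08 (SE 0.10, adjusted p = 0.562), and without fasted mouse 2 it was 0.19 with an adjusted p of 0.0316.

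**Figure D2:**
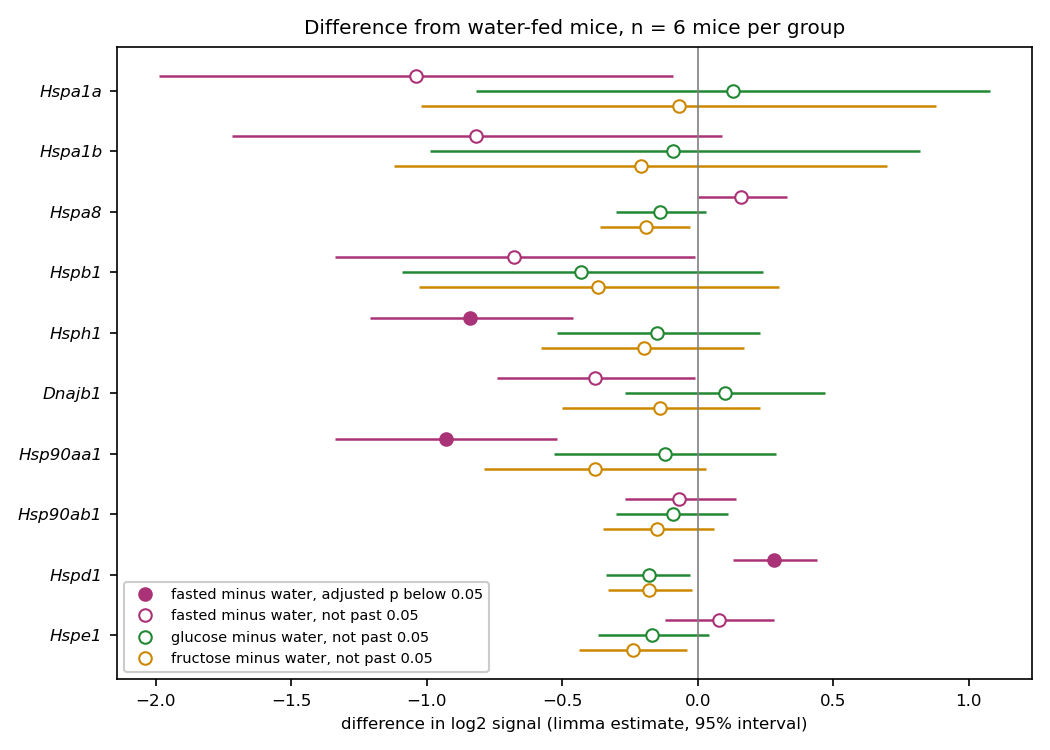
Difference in log2 signal from water-fed mice for fasted, glucose-fed and fructose-fed mice, with 95% intervals of the limma fit; filled points have an adjusted p under 0.05. Only Hsph1, Hsp90aa1 and Hspd1 in fasted mice are filled, and the intervals of Hspa1a and Hspa1b are the widest.

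Sugar in the drinking water gave small differences. Against water, 0 of 10 genes passed with glucose, where 0.83% of all genes were called, 0.409% higher and 0.421% lower. With fructose 0 of 10 passed, where 0.88% of all genes were called, 0.501% higher and 0.38% lower. At an unadjusted p under 0.05, limma gave 2743 and 3809 genes in all. All 10 genes had a lower mean with fructose than with water, with a median difference of -0.20, and 8 of 10 with glucose, with a median of -0.13. Both comparisons use the same water-fed mice, and the members move together from mouse to mouse, so these signs are not separate observations. Of the members, 3 passed an unadjusted p of 0.05 with fructose (Hspa8, Hspd1 and Hspe1) and 1 with glucose (Hspd1), and none of these passed after adjustment.

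The mitochondrial pair, like Hspa8 and Hsp90ab1, had its lowest means with sugar. Every glucose-fed mouse and every fructose-fed mouse had less Hspd1 RNA than every water-fed mouse, at a difference of -0.18 (SE 0.07, adjusted p = 0.330) with glucose and -0.18 (SE 0.07, adjusted p = 0.234) with fructose. Groups that did not overlap were seen for 2.36% of all genes with glucose and 1.77% with fructose. Hspe1 was at 5.98 to 6.31 with glucose, which overlapped water, and at 5.88 to 6.14 with fructose, which did not. Its difference was -0.24 with fructose (SE 0.10, adjusted p = 0.213) and -0.17 with glucose (SE 0.10, adjusted p = 0.555). Within the 3 slides the Hspd1 difference was -0.14 to -0.24 with glucose and -0.12 to -0.27 with fructose.

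Hspa8 had medians of 7.83 with glucose and 7.81 with fructose against 7.97 with water. Its difference with fructose was -0.19 (SE 0.08, adjusted p = 0.223), and the groups overlapped. Hsp90aa1 was at -0.38 with fructose (SE 0.20, 95% interval -0.79 to 0.03, adjusted p = 0.361). The inducible HSP70 genes gave the widest intervals: -0.82 to 1.08 for Hspa1a with glucose and -1.02 to 0.88 with fructose. Intervals this wide leave the direction for Hspa1a unknown.

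Between the sugars 0 of 10 members passed and all 10 overlapped, as against 0.647% of all genes without overlap. In limma 0% of all 23966 genes were called, with 1869 at an unadjusted p under 0.05. The differences, fructose minus glucose, ran from -0.26 for Hsp90aa1 (95% interval -0.67 to 0.15) to 0.06 for Hspb1 (-0.60 to 0.73). The closest was Hspd1 at 0.00 (95% interval -0.15 to 0.16).

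Against the sugar-fed mice more members passed: Hspa8, Hspd1 and Hspe1 were higher in fasted mice than with either sugar, and Hsph1 and Hsp90aa1 lower. With glucose as the reference 3 genes were higher and 4 lower in fasted mice, where 44.6% of all genes were called, 22.6% higher and 21.9% lower. Higher were Hspa8 at 0.30 (SE 0.08, adjusted p = 0.00349), Hspd1 at 0.47 (SE 0.07, adjusted p = 2.02e-05) and Hspe1 at 0.25 (SE 0.10, adjusted p = 0.0438). The other kept probes of Hspe1 gave 0.19 (adjusted p = 0.255) and 0.16 (adjusted p = 0.18) against glucose, and neither passed. Lower were Hsp90aa1 at -0.81 (SE 0.20, adjusted p = 0.00169) and Hsph1 at -0.69 (SE 0.18, adjusted p = 0.00309). Also lower were Dnajb1 at -0.48 (SE 0.18, adjusted p = 0.0326) and Hspa1a at -1.16 (SE 0.46, adjusted p = 0.0429). For Hsph1 and Dnajb1 no fasted mouse reached the glucose-fed range, as for 25.8% of all genes.

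With fructose as the reference 3 genes were higher and 2 lower, where 45.3% of all genes were called, 23.4% higher and 21.9% lower. Hspa8 was higher at 0.36 (SE 0.08, adjusted p = 0.000742), Hspd1 at 0.46 (SE 0.07, adjusted p = 2.25e-05) and Hspe1 at 0.32 (SE 0.10, adjusted p = 0.00927). Hsph1 was lower at -0.63 (SE 0.18, adjusted p = 0.00612) without overlap, as for 23.6% of all genes, and Hsp90aa1 at -0.55 (SE 0.20, adjusted p = 0.0260). These 2 comparisons share the fasted mice with each other and with the comparison against water. Several of these calls did not hold when 1 mouse was left out, and for each of them any of several mice had this effect. Against glucose, Dnajb1 no longer passed without fasted mouse 2, 4 or 5 or glucose-fed mouse 2 (adjusted p = 0.0614 to 0.0912). Hspa1a no longer passed without fasted mouse 2, 4, 5 or 6 or glucose-fed mouse 1, 2, 5 or 6 (0.0519 to 0.113). Hspe1 no longer passed without any of 5 fasted mice (all but mouse 2), glucose-fed mouse 1, 3, 4 or 6, or water-fed mouse 4 (0.0501 to 0.109). Against fructose, Hsp90aa1 no longer passed without fasted mouse 2, 4 or 5 or fructose-fed mouse 3 or 6 (0.0503 to 0.0796), while Hspa1a did pass without fasted mouse 3 (0.028) or fructose-fed mouse 6 (0.0304). Hspa1b passed against glucose without fasted mouse 3 (-1.08, adjusted p = 0.0325). Without the 6 fed and 2 fasted mice of slide 2, a choice made after seeing the data, Hsph1 was at -0.45 against fructose with an adjusted p of 0.0747. Single arrays moved the counts too: 4 genes passed against glucose without fasted mouse 4 or without fasted mouse 5.

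The 3 higher genes depended on scaling to different degrees. With quantile normalization Hspd1 stayed higher than with glucose (0.28, adjusted p = 0.00205) and with fructose (0.27, adjusted p = 0.00242). Hspa8 no longer passed with either (0.07 with an adjusted p of 0.5, and 0.12 with 0.216), nor did Hspe1 (0.14 with 0.232, and 0.22 with 0.0531). Against glucose the lower genes differed least on slide 3, at -0.25 for both Hsph1 and Hsp90aa1 and -0.09 for Dnajb1.

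Deviations of the members from the group mean were correlated over mice. Over the 45 pairs of members, the deviations of the 24 mice from their own group means correlated at r = 0.19 to 0.93, with a median of 0.68 (median Spearman's rho 0.64), and all pairs were above 0. The points share arrays and slides, and with the slide means removed the median was 0.57. The 2 mice farthest from their group mean were fasted mice 2 and 3, at a mean deviation of -0.62 and 0.59 over the members. Without them the median was 0.55. Over the 18 fed mice alone it was 0.44, with 44 of 45 pairs above 0 and a lowest r of -0.14. Over the 6 fasted mice alone, which include both of those mice, it was 0.89, and the difference between these medians was not tested.

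**Figure D3:**
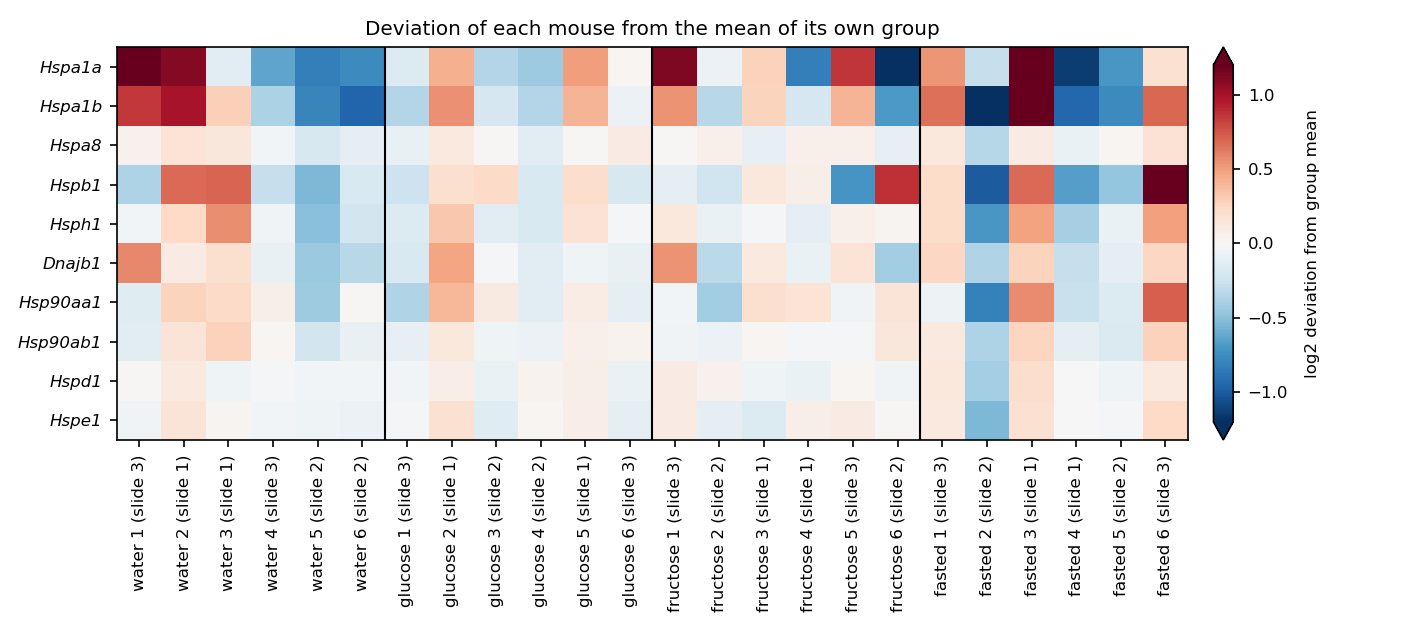
Log2 deviation of each of the 24 mice (columns, with slide) from the mean of its own group, for the 10 genes (rows); red is above and blue below the group mean, and colours are saturated beyond 1.2. Several columns are of 1 colour: fasted mouse 2, water-fed mouse 5 and glucose-fed mouse 1 are below the mean in all 10 rows, and fasted mice 3 and 6, water-fed mouse 2 and glucose-fed mouse 2 above it.

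Fasted mouse 2 had the lowest value of its group in 9 of the 10 genes, and fasted mice 3 and 6 lay above the group mean in 10 of 10. Among fed mice, water-fed mouse 2 and glucose-fed mouse 2 lay above their group mean in all 10, and water-fed mouse 5 and glucose-fed mouse 1 in 0. The SD was highest in the fasted group for 8 of the 10 genes, as for 38.6% of all genes. For Hsph1, the SD was 0.49 in fasted, 0.37 in water-fed, 0.20 in glucose-fed and 0.09 in fructose-fed mice. All 10 genes had their lowest mean deviation on slide 2, as did 32.1% of 23920 genes; it ranged from -0.07 for Hspd1 to -0.68 for Hspa1b.

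Hspa8 and Hsph1 were related differently within groups and over all levels. Within groups their deviations correlated at r = 0.85 (rho 0.80) over 24 mice, at 0.75 over the 18 fed mice and at 0.79 without the 2 farthest mice. Over the levels of all 24 mice r was -0.01. The fasted mean was higher in Hspa8 and lower in Hsph1, but the Hspa8 difference from water did not pass (0.16, adjusted p = 0.107) and was -0.01 with quantile normalization. Hsph1 and Hsp90aa1 correlated at 0.84 within groups and at 0.91 over levels, and Hsph1 and Hsp90ab1 at 0.93 and 0.62. Hspd1 and Hspe1, which share the stretch of DNA between their starts, correlated at 0.89 within groups (0.74 without the 2 farthest mice) and at 0.86 over levels. Hspa1a and Hspa1b did so at 0.87 (0.90 without them) and 0.88.

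**Figure D4:**
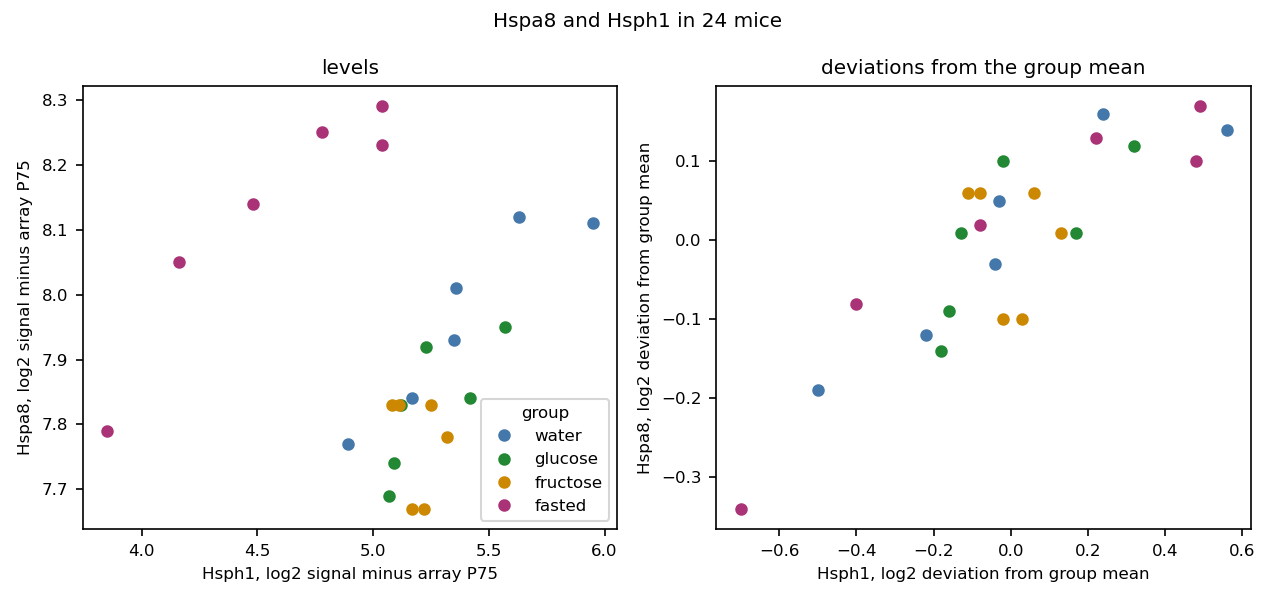
Hspa8 against Hsph1 in the 24 mice, as levels (left, log2 signal relative to the array's 75th percentile) and as log2 deviations from the group mean (right), coloured by group. On the left, 4 of the 6 fasted mice lie above every water-fed mouse in Hspa8, and fasted mice 2 and 4 lie within the water-fed range; on the right, the points of the fructose-fed mice lie close together and those of the fasted mice spread the farthest.

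The genes whose level over the 24 arrays was most like the mean of the 10 members, among 20000 genes above background on all arrays, included other chaperone genes. Dnaja1, an HSP40 protein of the cytosol, correlated at 0.837 and Bag3, a co-chaperone that links HSP70 to autophagy, at 0.84. A probe described on the array as a Dnaja1 pseudogene (ENSMUST00000162103) was first, at 0.861. Fam102a followed at 0.838 and Sel1l3 at 0.816. The other 3 of the 8 were the array's own names NAP058885-1 (0.831), ENSMUST00000119884 (0.803) and ENSMUST00000189380 (0.787). The probes of NAP058885-1 and ENSMUST00000119884 share a run of 22 bases, so they may read the same RNA. In fasted against water-fed mice Bag3 fell by 0.61 on the log2 scale (SE 0.19, adjusted p = 0.0109) and Dnaja1 fell by 0.33 (SE 0.12, adjusted p = 0.0311).

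Partners of the HSP70 and HSP90 systems outside the 10 genes were counted list by list in fasted against water-fed mice, where 21.7% of all genes were higher and 20.9% lower; no list was tested as a set. Of 7 other HSP70 family genes, 5 were lower and 1 higher (median difference -0.40, all genes 0.02). Hspa4l, an HSP110 protein like Hsph1, was at -0.86 (SE 0.18, adjusted p = 0.000346), Hspa14 at -0.48 (SE 0.06, adjusted p = 1.7e-06) and Hspa4 at 0.27 (SE 0.06, adjusted p = 0.00108). Probes disagreed for some of these genes: 1 of 4 kept Hspa4l probes gave 0.37 (adjusted p = 0.126), and 2 of 4 for Hspa14 gave -0.15 and -0.21 without passing. Of 12 other HSP40 genes, 4 were lower and 4 higher (median -0.06), among them Dnaja4 at -1.04 (SE 0.12), Dnajb5 at -0.66 (SE 0.09) and Dnaja2 at 0.44 (SE 0.06). The other 2 kept probes of Dnajb5 gave 0.31 (adjusted p = 0.0741) and -0.05 (0.819), so its fall rests on 1 of 3 probes. Of 9 exchange factors and other co-chaperones of HSP70, 4 were lower and 2 higher (median 0.04). Bag2 was at -0.73 (SE 0.12), Bag1 at -0.19 (SE 0.05) and Bag4 at 0.75 (SE 0.10). The other kept probe of Bag2 gave -0.19 (adjusted p = 0.364).

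Of 17 HSP90 co-chaperones, 8 were lower and 1 higher (median -0.14). Fkbp4, a partner of HSP90 in steroid receptor complexes, was at -1.11 (SE 0.11, adjusted p = 4.23e-08) and Ppid, a cyclophilin of the same complexes, at -0.59 (SE 0.08, adjusted p = 1.81e-06). Fkbp5, a glucocorticoid-induced member of the list, was the 1 higher gene, at 1.36 (SE 0.16, adjusted p = 3.56e-07). Of 7 small heat shock proteins measured besides Hspb1, 2 were higher and 2 lower: Hspb8 at 0.37 and Hspb7 at 1.13, Cryab at -0.67 and Hspb2 at -0.44. Hspb7, named here after its values were seen, did not pass with the slide block (adjusted p = 0.0502).

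Of 16 other mitochondrial chaperones and proteases, 7 were higher, 1 lower and 8 not past the test (median 0.16), which is 50% called against 42.6% of all genes. Grpel2, an exchange factor of mitochondrial HSP70, was at 1.88 (SE 0.13, adjusted p = 5.98e-11), Clpx, the unfoldase of the Clp protease, at 1.71 (SE 0.12, adjusted p = 8.42e-11) and Dnaja3 at 0.61 (SE 0.06, adjusted p = 6.53e-09). In the cytosolic chaperonin CCT and its helper prefoldin, 2 of 14 genes were higher and 4 lower, with Cct2 at 0.22, Vbp1 at -0.31 and Pfdn6 at -0.27. Of 4 genes on the list of heat shock factors, which also holds the binding protein Hsbp1, Hsf4 was lower at -0.56 (SE 0.10). Hsf1, which the naming rule did not pick and whose values had been seen, was at -0.01 (SE 0.07, adjusted p = 0.936).

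The chaperones of the endoplasmic reticulum, given here as a contrast, were lower in fasted mice in 18 of 18 genes by the probe used for each, with a median of -1.51. Other kept probes did not all follow. For Dnajb11 they gave -1.32 and 1.68, the latter past the test as higher (adjusted p = 5.16e-05). A Dnajc10 probe at 0.08 (adjusted p = 0.851) and a P4hb probe at -0.43 (adjusted p = 0.163) did not pass. Pdia6 was at -1.95, Hyou1 at -2.52 and Manf at -3.02. Whether this list differed from the 10 members was not tested, and the members had 2 lower genes of 10. Among immediate-early genes, which rise within minutes of handling or stress, 7 of 12 were higher and 0 lower in fasted mice, with Junb at 1.55, Egr1 at 3.60 and Fos at 1.28. The mean log2 deviation of these 12 genes from their group means followed that of the members at r = 0.07 over 24 arrays.

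**Figure D5:**
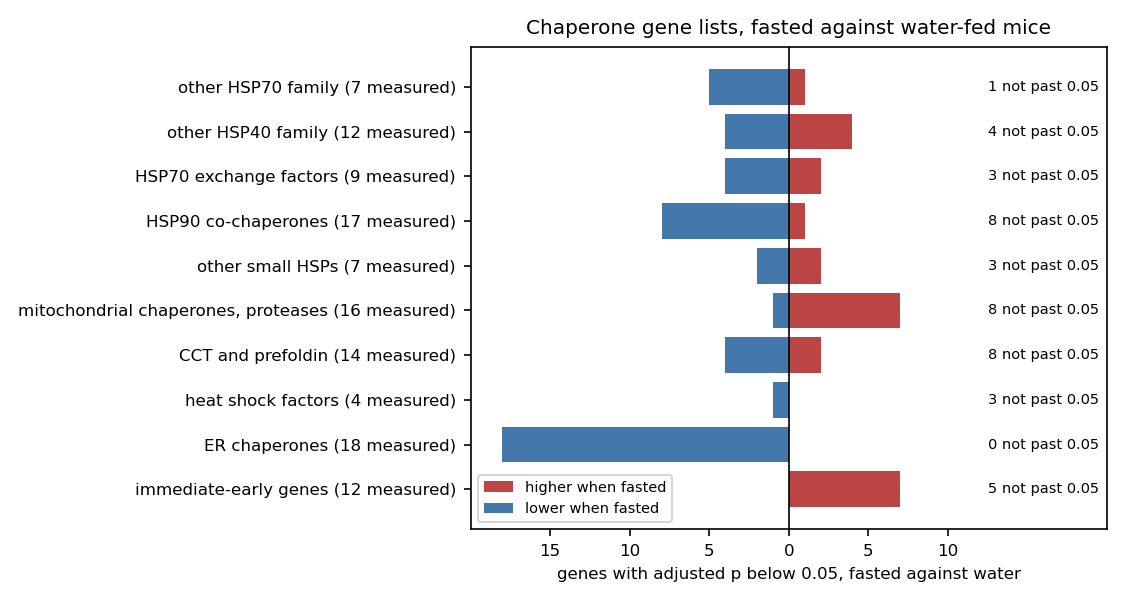
Number of genes of each chaperone list with an adjusted p under 0.05 in fasted against water-fed mice, higher to the right and lower to the left, with the number not past the threshold at the right edge. The bars lie mainly to the left for other HSP70 family genes, HSP90 co-chaperones and endoplasmic reticulum chaperones. They lean less to the left for exchange factors and for CCT and prefoldin, and heat shock factors have 1 lower gene. They lie mainly to the right for mitochondrial chaperones and immediate-early genes. Of all genes, 42.6% were called. The list labelled HSP70 exchange factors also holds other co-chaperones of HSP70, and the list labelled heat shock factors also holds their binding protein Hsbp1.

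With sugar, calls in these lists were in small heat shock proteins and in chaperones of the endoplasmic reticulum. Hspb8, a small heat shock protein that works with Bag3, was lower with glucose (-0.34, SE 0.08, adjusted p = 0.0450) and with fructose (-0.33, SE 0.08, adjusted p = 0.0473), and the second did not pass with the slide block (0.0504). With fructose, 4 of 18 endoplasmic reticulum chaperones were lower (22.2%, where 0.88% of all genes were called; median -0.38): Hspa5 at -0.73, Hsp90b1 at -0.57, Pdia4 at -0.54 and Sdf2l1 at -0.97. Manf, at -0.70, passed with the slide block (adjusted p = 0.0271) and not without it (0.0586). No other chaperone of these lists passed with either sugar in either of these fits.

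The tissue was checked against markers: 9 of 10 hepatocyte markers were measured, and their summed signal, in multiples of the array's 75th percentile, was 5570 to 7790. It was 7090 to 7790 in fasted, 6180 to 7310 in water-fed, 5830 to 6160 in glucose-fed and 5570 to 6120 in fructose-fed mice. Of these markers, Cps1 and Ass1 were lower with glucose and Apoa1 and Ass1 with fructose. In liver tissue, fewer cells of a type and less RNA per cell cannot be told apart.

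Markers of some other cells moved with the members from mouse to mouse. The mean log2 deviation of 5 neutrophil markers from their group means followed that of the members at r = -0.75 over 24 arrays. The r of each list below was taken in the same way, not from the summed level. The summed level of the neutrophil markers was 24.6 in fasted mouse 2 and 21.3 in fasted mouse 4. It was 2.42 to 5.68 in the other 4 fasted mice and 3.12 to 5.56 in the fed mice. In fasted against water-fed mice 1 of these 5 markers was higher and 1 lower. The 8 liver endothelial markers followed the members at r = 0.69, with 3 higher and 2 lower. Their sum ranged from 46.5 to 66.6 in fasted and 50.7 to 64.9 in water-fed mice.

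Other lists were followed at r = -0.63 for 4 red cell markers (0 higher, 1 lower), 0.62 for 5 adipocyte markers (2 and 0), -0.61 for 2 acinar markers (0 and 0), 0.40 for 5 muscle markers (0 and 1) and 0.37 for 8 stellate markers (1 and 3). The lists of 8 Kupffer cell (2 and 0), 7 cholangiocyte (0 and 3) and 8 lymphocyte markers (0 and 3) lay at -0.29, -0.19 and 0.03, and the 9 hepatocyte markers (4 and 1) at -0.65. The red cell sum was 377 to 791 in fasted and 343 to 495 in water-fed mice, and the adipocyte sum 5.33 to 9.94 and 4.54 to 7.53. Some listed markers were not measured, among them Ngp of neutrophils and Ckm of muscle. The part of these cells in the results for the members was not tested.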

How the data were processed

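The scanner files were used, 1 per mouse. Per the file headers, Agilent Feature Extraction 10.10.1.1 gave each spot's processed intensity, corrected for background and spatial trend. The authors also deposited a series table in log2 units, with column medians of 7.38 to 7.39; its normalization and centring are not stated, and it served as an alternative. Control and outlier-flagged spots were left out. The log2 intensity minus the array's 75th percentile was averaged per probe. Probes well above background on at least 6 of 24 arrays were kept (36229), and a gene took its kept probe with the highest mean. Group means of all 24 arrays were fitted with limma 3.58.1 (lmFit, eBayes) in R 4.3.3, with Benjamini-Hochberg adjustment within each of 6 comparisons. The procedure was tested on simulated data. Array number limits the precision, and no label ties mice to litters.

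The members and lists were chosen with earlier results of these data known. Named are all members, up to 3 genes per list with the lowest p among those called in fasted against water-fed mice, list genes called with a sugar, and the 8 genes most like the members. Alternatives changed the background correction (normexp, offset 50), scaling, filter, probe, slide, replicate block and array weights, or left out 1 array. Coordinates of probes are on mm9 and promoters are RefSeq's on GRCm38.p6. Genome and protein sequences were not used here.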

Additional observations from a re-analysis of the deposited data

Results flagged for a closer look

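In 3 of the 40 combinations of gene and group, 1 mouse lay far from the other 5; chance gives about 1 in 20 such groups, and the members share mice. Dnajb1 was 5.62 in glucose-fed mouse 2, where the next mouse was at 5.13. Hspd1 was 7.42 in water-fed mouse 2, where the next was at 7.31. Hspe1 was 5.83 in fasted mouse 2, where the next was at 6.36. Levels are log2, with the 75th percentile of the array subtracted.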

How the results depend on the processing

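The 15 called differences kept their sign in all 622 values from other settings and their call in 544. Among the 60 differences of members, 78 values of 2454 lost a call, 17 gained one and 0 reversed, while 68 changed sign where neither setting passed. Against water, 3 fasted calls became 5 with the slide block, 1 within slide 1, 1 within slide 3, and 3 to 5 with 1 array left out (5 without water-fed mouse 5, fasted mouse 2 or fasted mouse 3). Against glucose, 7 became 4 without the filter on dim probes, 1, 4 and 3 within slides 1, 2 and 3, and 4 to 7 with 1 array left out. Against fructose, 5 became 3 with quantile normalization, 3 in the deposited series table, 1, 2 and 3 within the slides, 3 without slide 2 (chosen after seeing the data), and 4 to 6 with 1 array left out. Within a slide there are 2 mice per group, so fewer arrays enter; the other causes were not tested. Sugar comparisons gave 0 members in all 40 settings, while over all genes glucose against water ran from 0 to 514, fructose against water from 0 to 545, fructose against glucose from 0 to 6 and fasted against water from 4125 to 10557, with the lowest values within slides.

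Whether replicate numbers pair the mice was not tested. Mice of different groups deviated together at a mean r of 0.0334 with the same number and -0.0067 with different numbers. Of the same-numbered pairs 9 of 36 were over 0.1, and 8 of 24 arrays matched best with their own number. The replicate block gave 4, 6 and 5 calls for fasted mice against water, glucose and fructose. Signal near background limited 2 member probes, 1 of Hsph1 and 1 of Hsp90aa1.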
